A study of Mus musculus with 9 samples.

Results

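The 10 genes described here encode the ligands of the vascular endothelial growth factor (VEGF) family and their receptors. They were chosen by name from the 18349 genes listed in each library. The rule used no measured value, but it was written with earlier results of these data known. The ligands were *Vegfa*, *Vegfb*, *Vegfc*, *Vegfd* and *Pgf*, the receptors were *Flt1* (VEGFR1), *Kdr* (VEGFR2) and *Flt4* (VEGFR3), and the co-receptors were the neuropilins *Nrp1* and *Nrp2*. All 10 passed the filter on low counts, which kept 15010 genes. They were measured by RNA-Seq of mouse irises after an alkali burn of the cornea, in 9 libraries that each pooled 3 irises.

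Each of the 3 groups had 3 libraries. The Sham VEGFR3fl/fl group carried floxed *VEGFR3* without Cre and received PBS on the cornea. The injured VEGFR3fl/fl group had the same genotype, and at 6 weeks of age sodium hydroxide (1 M, 0.5 μL) on filter paper was held against the cornea for 60 seconds. The injured VEGFR3iLECko group received the same burn and carried floxed *VEGFR3* together with Prox1CreERT2, a Cre recombinase under the *Prox1* promoter that is active only in the presence of tamoxifen. Tamoxifen at 80 mg/kg was given from day 13 to day 17 to the VEGFR3iLECko mice and to their VEGFR3fl/fl littermates. Irises were taken at 10 weeks of age, 28 days after injury, from mice on the C57BL/6J background. The Cre acts in cells that express *Prox1*, such as lymphatic endothelial cells, whereas the RNA came from whole irises. The labels do not say whether the pools came from separate litters, so p-values measure the spread between these libraries.

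VEGF-A binds VEGFR1 and VEGFR2, and VEGFR2 is the main receptor through which it drives the growth and leakiness of blood vessels. VEGFR1 binds VEGF-A, VEGF-B and placental growth factor (PlGF, encoded by *Pgf*) tightly but signals weakly, and its membrane-bound and soluble forms can hold VEGF-A away from VEGFR2. VEGF-C and VEGF-D, once cut by proteases, act through VEGFR3 on lymphatic endothelium, and the neuropilins, which also bind class 3 semaphorins, present ligands to these receptors.

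The promoters of 4 ligands are shown because the ligand results turn on the contrast between them. *Vegfa*, *Vegfb* and *Vegfd* fell after injury, and *Vegfc* did not pass the test. Each sequence is the 250 bases before the annotated start in RefSeq (GRCm38.p6), written 5′ to 3′ on the strand of the gene. Capitals mark the GC box, GGGCGG, on either strand, a binding motif of Sp1-type factors.
*Vegfa*, chr17:46032378-46032627, minus strand: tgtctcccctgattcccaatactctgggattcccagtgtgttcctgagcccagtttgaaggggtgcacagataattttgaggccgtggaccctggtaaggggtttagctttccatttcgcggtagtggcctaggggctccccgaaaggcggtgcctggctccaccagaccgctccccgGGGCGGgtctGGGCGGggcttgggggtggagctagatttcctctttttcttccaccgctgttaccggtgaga
*Vegfb*, chr19:6987652-6987901, minus strand: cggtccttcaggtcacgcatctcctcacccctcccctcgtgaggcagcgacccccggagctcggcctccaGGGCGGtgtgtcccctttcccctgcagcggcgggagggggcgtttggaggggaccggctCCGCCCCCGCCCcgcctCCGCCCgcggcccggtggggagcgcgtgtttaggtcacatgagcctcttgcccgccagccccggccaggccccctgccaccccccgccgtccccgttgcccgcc
*Vegfd*, chrX:164373272-164373521, plus strand: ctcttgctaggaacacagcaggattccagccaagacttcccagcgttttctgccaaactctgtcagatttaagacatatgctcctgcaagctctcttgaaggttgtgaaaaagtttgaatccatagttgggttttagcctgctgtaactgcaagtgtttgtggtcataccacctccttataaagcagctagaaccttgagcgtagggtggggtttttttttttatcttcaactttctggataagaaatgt
*Vegfc*, chr8:54077282-54077531, plus strand: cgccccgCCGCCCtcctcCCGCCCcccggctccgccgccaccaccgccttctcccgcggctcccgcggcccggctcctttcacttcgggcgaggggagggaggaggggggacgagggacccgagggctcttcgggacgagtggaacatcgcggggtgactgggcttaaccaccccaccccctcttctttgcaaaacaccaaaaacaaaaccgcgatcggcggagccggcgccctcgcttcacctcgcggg
The *Vegfa* window held 2 GC boxes, the *Vegfb* window 4, the *Vegfc* window 2 and the *Vegfd* window 0. *Vegfb* had the highest GC content of the 10 genes (76.4%) and *Vegfd* the lowest (42.4%), and the median of all 32851 promoter windows in the RefSeq table was 52.4%. A GC box occurred before 9 of the 10 genes and in 32.7% of all windows. The core of the hypoxia response element, ACGTG or GCGTG on either strand, occurred before 6 of the 10 genes, with 2 matches in *Vegfb* and 0 in *Vegfa*, *Vegfc* and *Vegfd*, and in 38.6% of all windows. The TATA motif, TATAAA, occurred before *Vegfd* and *Flt1* and in 12.4% of all windows. A match of letters is not a binding site, and the ligands that fell did not share a motif among those searched. Each window covered only the 250 bases before a single annotated start. Elements farther away or at other starts were not searched, so a count of 0 does not mean that a gene lacks the element.

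The libraries held 16617187 to 18306359 counts. A differentially expressed gene (DEG), here called higher or lower, had to change over 1.5-fold at an adjusted p under 0.05 (quasi-likelihood test of edgeR, Benjamini-Hochberg adjusted across the genes tested). Markers of pigment cells and iris smooth muscle, the tissue labelled, were present in every library, and both fell after injury, with 8 of 8 and 6 of 8 genes lower. The summed level of the pigment cell markers was 27800 to 29800 CPM (counts scaled to a common library total) in Sham and 3410 to 5860 CPM in injured VEGFR3fl/fl libraries, and that of iris smooth muscle was 9440 to 11800 and 2060 to 3890 CPM. Markers of macrophages (12 of 13 genes higher), fibroblasts (6 of 7), pericytes (5 of 6), T cells (6 of 6 tested), neutrophils (3 of 3 tested) and blood endothelium (15 of 18 higher, 1 lower) rose. Of the other lists, 3 of 9 lymphatic endothelial genes were higher and 2 lower, 2 of 4 tested lens genes were higher and 1 lower, 5 of 7 tested surface epithelial genes and 1 of 4 tested striated muscle genes were lower, and the 2 ciliary body genes and 4 Y-linked genes were not DEGs. The summed Y-linked level was 51.1 to 167 CPM in Sham, 0.804 to 151 CPM in injured VEGFR3fl/fl libraries, among which replicate 3 was the low one, and 0.736 to 1.11 CPM in the libraries labelled VEGFR3iLECko. The injured groups therefore overlapped in Y-linked RNA through replicate 3, while the other 2 injured VEGFR3fl/fl libraries were far above the libraries labelled VEGFR3iLECko.

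*Flt4*, the gene targeted by the deletion, had 282, 237 and 265 counts in the Sham libraries, 277, 353 and 400 counts in the injured VEGFR3fl/fl libraries and 478, 370 and 476 counts in the libraries labelled VEGFR3iLECko. The gene targeted for deletion was therefore not lower in the libraries that carry the deletion label, and the counts per gene do not show whether the floxed exon was lost. Comparisons with these libraries are described as comparisons of labels for that reason. *Prox1*, which drives the Cre, had 55, 17 and 27 counts in Sham, 74, 51 and 10 counts in injured VEGFR3fl/fl and 16, 20 and 21 counts in the libraries labelled VEGFR3iLECko.

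Levels of different genes were compared as CPM per kb of the longest annotated transcript. In Sham irises, *Vegfb* was the highest of the 10 genes at 195.5 ± 17.7 CPM per kb (SD, n = 3), followed by *Vegfa* at 57.3 ± 5.23, *Nrp1* at 49.2 ± 1.94, *Nrp2* at 26.5 ± 1.93 and *Flt1* at 17.3 ± 1.10 CPM per kb. These 5 did not overlap their neighbours in the order. *Kdr* at 12.2 ± 1.68 CPM per kb overlapped *Vegfd* at 9.56 ± 1.10, and *Vegfd* overlapped *Pgf* at 8.31 ± 0.359 CPM per kb. *Vegfc* at 6.55 ± 0.146 and *Flt4* at 2.34 ± 0.183 CPM per kb were the lowest. In injured VEGFR3fl/fl irises the order was *Vegfb* (67.3 ± 2.36 CPM per kb), *Nrp1* (58.2 ± 4.06), *Nrp2* (34.3 ± 1.70), *Vegfa* (28.4 ± 8.04), *Kdr* (17.4 ± 1.37), *Pgf* (11.3 ± 3.34), *Flt1* (9.68 ± 0.841), *Vegfc* (5.90 ± 1.41), *Vegfd* (3.54 ± 0.175) and *Flt4* (3.22 ± 0.497). Among these, *Nrp2* and *Vegfa*, *Pgf* and *Flt1*, and *Vegfd* and *Flt4* overlapped. The order depends on the transcript length used. With the median transcript length of each gene, *Vegfa* came first in every group and *Flt4* last. *Vegfc* then had 28.9 CPM per kb in Sham and ranked 5 instead of 9.

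The first comparison asked how the irises of injured VEGFR3fl/fl mice differed from Sham irises. Transcripts of 3 ligands, *Vegfa*, *Vegfb* and *Vegfd*, and of the receptor *Flt1* fell after injury by 1.79-fold to 2.91-fold. *Kdr*, *Flt4*, *Nrp1* and *Nrp2* were higher by 1.18-fold to 1.43-fold, below the 1.5-fold threshold for a DEG. *Vegfc* and *Pgf* did not pass the test. Of the 10 genes, 4 were DEGs that fell and 0 were DEGs that rose. Among all genes tested, 17.5% fell and 22.1% rose. An adjusted p under 0.05 at any fold was reached by 8 of the 10 genes and by 60% of all genes tested. The median log2 fold change was 0.045 over the 10 genes and 0.010 over all genes. In RNA of whole irises, fewer cells of a type and less RNA per cell cannot be told apart.

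*Vegfa* (NCBI Gene ID 22339, chr17:46016993-46032377, GRCm38.p6), the ligand of both VEGFR1 and VEGFR2, had 214, 178 and 200.1 CPM in the Sham libraries and 67.1, 121 and 106 CPM in the injured VEGFR3fl/fl libraries. The groups did not overlap, and injured replicate 1 was the lowest library. Its log2 fold change was -1.01 (SE 0.196, adjusted p = 0.00172 by edgeR), a 2.02-fold fall. *Vegfb* (22340, chr19:6982472-6987651), a ligand of VEGFR1, had 234, 276 and 241 CPM in Sham and 82.8, 87.1 and 88.6 CPM after injury. The injured libraries lay close together and far below each Sham library. *Vegfb* fell by 1.54 on the log2 scale (SE 0.140, adjusted p = 1.71e-05 by edgeR), or 2.91-fold, the largest change among the 10 genes. *Vegfd* (14205, chrX:164373522-164402650), a ligand of VEGFR3, had 20.5, 21.2 and 17.01 CPM in Sham and 7.40, 6.85 and 7.52 CPM after injury. Every injured library was below every Sham library, and *Vegfd* fell by 1.43 on the log2 scale (SE 0.149, adjusted p = 3.86e-05 by edgeR).

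The remaining ligands did not pass the test. *Vegfc* (22341, chr8:54077532-54186454), the other ligand of VEGFR3, had 16.2, 15.6 and 16.3 CPM in Sham and 18.1, 14.05 and 11.2 CPM after injury. The Sham libraries were within 1 CPM of each other, and the injured libraries lay on both sides of them. The log2 fold change was -0.15 (95% CI -0.51 to 0.20, adjusted p = 0.424 by edgeR). With 1 library left out it ran from -0.35 to 0.0033, and its adjusted p from 0.0358 to 0.986. *Vegfc* was the only one of the 10 genes whose deposited counts were not whole numbers, as for reads divided between features, so its level is less certain. *Pgf* (18654, chr12:85166637-85177785), a ligand of VEGFR1 that is scarce in most resting adult tissues, had 17, 16.7 and 18.1 CPM in Sham and 17.4, 31.0 and 21.8 CPM after injury. Only injured replicate 1 overlapped the Sham libraries. The log2 fold change was 0.44 (95% CI 0.0098 to 0.86, adjusted p = 0.0724 by edgeR), and without injured replicate 1 it was 0.61 (adjusted p = 0.00886).

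**Figure D1:**
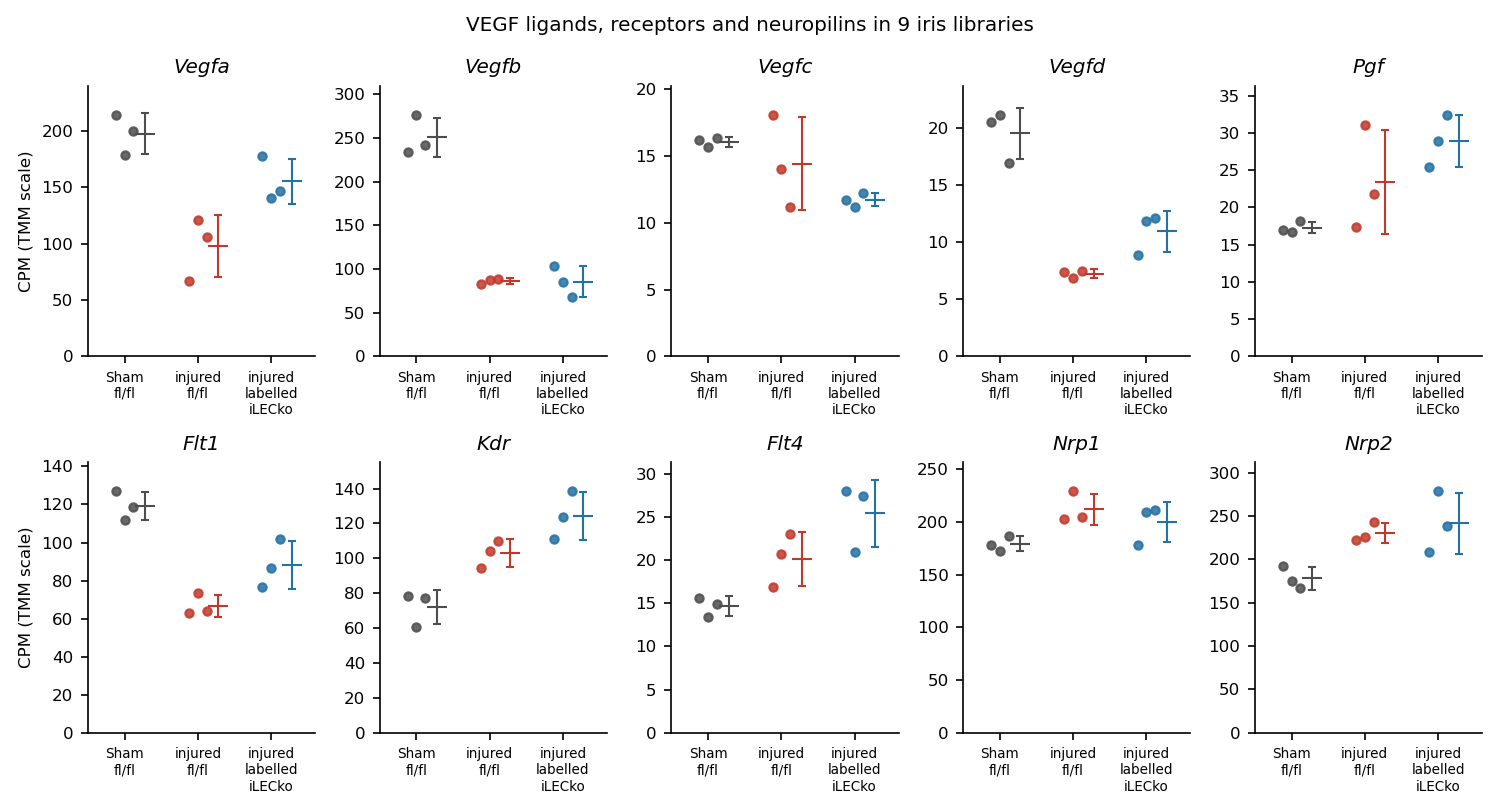
Normalized level (CPM on the TMM scale, y axis from 0, a separate scale for each gene) of the 10 genes in the 9 libraries, with 1 point per library and the mean and SD of each group. *Vegfa*, *Vegfb*, *Vegfd* and *Flt1* sit below all Sham libraries in the injured VEGFR3fl/fl libraries, and *Flt4* is not lower in the libraries labelled VEGFR3iLECko, with 27.9, 21.0 and 27.4 CPM.

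Among the receptors, *Flt1* (14254, chr5:147561604-147726438) had 127, 112 and 119 CPM in Sham and 63.0, 73.4 and 63.8 CPM after injury. The groups were far apart, and *Flt1* fell by 0.84 on the log2 scale (SE 0.112, adjusted p = 0.000184 by edgeR), or 1.79-fold. Counts per gene do not separate the soluble from the membrane-bound form. *Kdr* (16542, chr5:75932827-75979072) had 78.5, 60.6 and 77.0 CPM in Sham and 94.2, 104 and 110.2 CPM after injury. Every injured library was above every Sham library, in the direction opposite to *Flt1*. The log2 fold change was 0.51 (SE 0.121, adjusted p = 0.00506 by edgeR), a 1.43-fold difference. *Flt4* (14257, chr11:49609679-49652739) had 15.6, 13.4 and 14.9 CPM in Sham and 16.8, 20.7 and 23.0 CPM after injury. Its groups did not overlap, but injured replicate 1 was close to Sham replicate 1. The log2 fold change was 0.46 (SE 0.148, adjusted p = 0.0234 by edgeR), and its adjusted p rose to at most 0.0806 with 1 library left out.

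The neuropilins were slightly higher after injury. *Nrp1* (18186, chr8:128358591-128505476), which binds VEGF-A and is found on blood endothelium and many other cells, had 178, 173 and 187 CPM in Sham and 202.5, 229 and 204 CPM after injury. *Nrp2* (18187, chr1:62703317-62818692), which binds VEGF-C and is found on lymphatic endothelium, had 192, 175 and 167 CPM in Sham and 222, 226 and 244 CPM after injury. Neither gene overlapped between the groups. The log2 fold changes were 0.24 for *Nrp1* (adjusted p = 0.0402 by edgeR) and 0.37 for *Nrp2* (adjusted p = 0.0157 by edgeR), so that both were below 1.5-fold. When libraries were scaled by their totals alone, the log2 fold changes of *Kdr*, *Flt4*, *Nrp1* and *Nrp2* were 0.34, 0.29, 0.071 and 0.20, and none reached an adjusted p of 0.05 (0.0537, 0.14, 0.569 and 0.186 by edgeR). In all, 8 of the 10 genes did not overlap between Sham and injured VEGFR3fl/fl libraries, as did 66.3% of all genes tested.

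**Figure D2:**
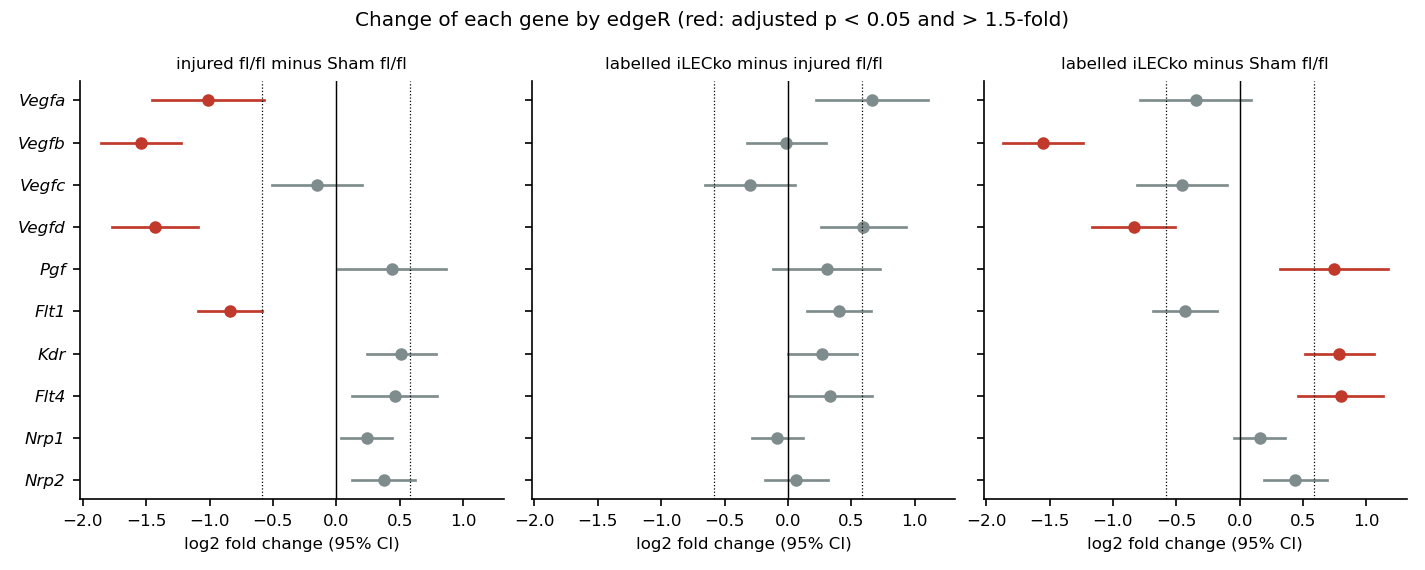
Log2 fold change with its 95% CI (x axis) of each of the 10 genes (rows) in the 3 comparisons (panels), by edgeR. Red marks DEGs, which were 4 genes with negative values after injury, 0 between the injured groups, and 5 (3 with positive and 2 with negative values) between the libraries labelled VEGFR3iLECko and Sham.

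The mix of ligand RNA was described by the share of each ligand in their sum. The summed level of the 5 ligands was 277 ± 12.9 CPM per kb in Sham and 116 ± 11.9 CPM per kb in injured VEGFR3fl/fl irises (SD, n = 3). *Vegfb* made up 67.7%, 73.8% and 69.8% of this sum in the Sham libraries and 62.5%, 53.6% and 58.3% in the injured libraries. Its share was lower in every injured library. *Pgf* made up 3.04%, 2.75% and 3.23% in Sham and 8.10%, 11.7% and 8.82% after injury, and *Vegfc* 2.45%, 2.19% and 2.47% in Sham and 7.14%, 4.52% and 3.85% after injury. For these 3 ligands the groups did not overlap (two-sided exact permutation test, p = 0.1, the smallest that 3 against 3 libraries can give; adjusted p = 0.2 over 10 values). The share of *Vegfa* was 20.7% in Sham and 24.1% after injury (exact permutation test, p = 0.3, adjusted p = 0.333), and that of *Vegfd* was 3.45% and 3.07%. The mean shares of *Vegfc* and *Pgf* were thus larger, of a smaller mean sum, but no share passed the test, and neither gene was a DEG. The shares depend on transcript length, and with the median length *Vegfa* made up 45.5% in Sham and 47.2% after injury.

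**Figure D3:**
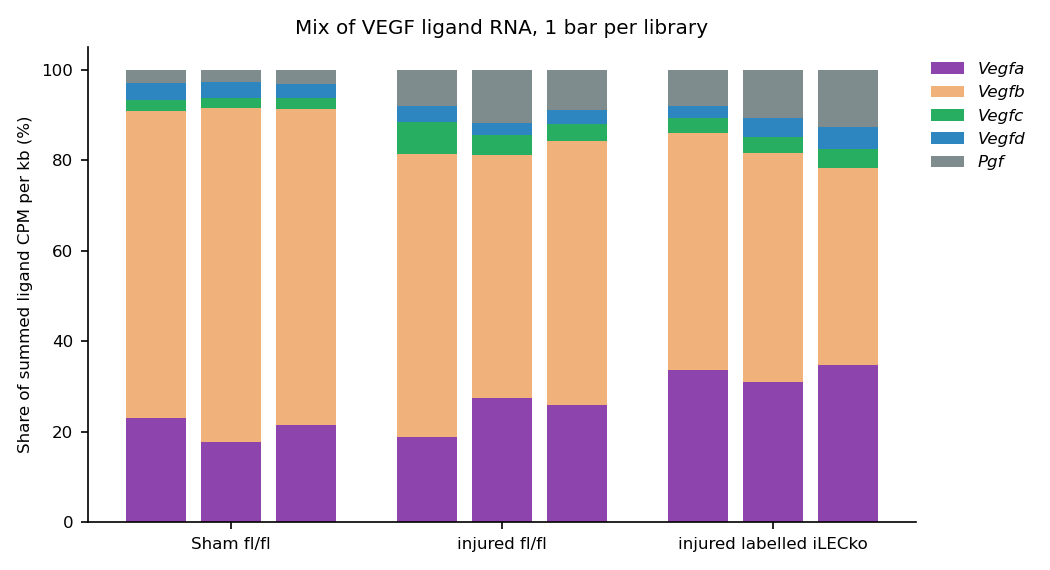
Share (%) of each of the 5 ligands in their summed CPM per kb (y axis), with 1 stacked bar per library in the 3 groups. The *Vegfb* share is 70.4% in Sham, 58.1% in injured VEGFR3fl/fl and 48.8% in the libraries labelled VEGFR3iLECko on average, and the *Pgf* share is 3.01%, 9.55% and 10.4%.

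Ratios within a library set the receptors against each other and against their ligands. The log2 ratio of *Kdr* over *Flt1*, computed from CPM per kb, was -0.47, -0.66 and -0.41 in Sham and 0.80, 0.72 and 1.01 in injured VEGFR3fl/fl libraries. It was below 0 in every Sham library and above 0 in every injured VEGFR3fl/fl library. This ratio had means of -0.51 ± 0.13 and 0.84 ± 0.15 (SD, n = 3, exact permutation test, p = 0.1). Its sign rests on transcript lengths, whereas the difference between the groups does not. For the ratios below that sum genes of unlike length, the difference between the groups depends on the lengths too. The ratio of *Vegfa* to the sum of *Flt1* and *Kdr* was 0.96 ± 0.018 in Sham and 0.030 ± 0.35 after injury on the log2 scale, and did not overlap (exact permutation test, p = 0.1). The ratio of *Vegfc* and *Vegfd* together over *Flt4* was 2.78 ± 0.16 in Sham and 1.55 ± 0.44 after injury, also without overlap (exact permutation test, p = 0.1). In contrast, *Flt4* over *Kdr* was -2.37 ± 0.10 and -2.44 ± 0.11 (exact permutation test, p = 0.5), and *Nrp2* over *Nrp1* was -0.89 ± 0.14 and -0.76 ± 0.14 (exact permutation test, p = 0.4).

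The receptors were then set against 18 other blood endothelial markers. *Pecam1* and *Cdh5*, which encode junction proteins of endothelial cells, rose by 2.61 and 2.08 on the log2 scale after injury (adjusted p = 2.36e-07 and 7.31e-06 by edgeR), and the median over the 18 markers was 1.39. Log2 fold changes of the 18 markers ran from -0.79 to 2.61, with 15 markers higher, 1 lower and 2 not DEGs. Their summed level was 1040 to 1100 CPM in Sham and 2600 to 2810 CPM in injured VEGFR3fl/fl libraries. Relative to the mean of these markers in the same library, all 10 genes were lower after injury, as were 80.4% of all genes tested (limma, adjusted p under 0.05). *Flt1* was lower by 2.12 on the log2 scale relative to the markers (adjusted p = 1.25e-07 by limma), *Kdr* by 0.77 (adjusted p = 0.000336) and *Flt4* by 0.84 (adjusted p = 0.00096). *Kdr* and *Flt4* were thus higher per library but lower relative to the mean of the 18 markers, a result that depends on the markers averaged. *Nrp1* differed by -1.05 and *Nrp2* by -0.91 on this scale. Since 80.4% of all genes were lower on this scale, being lower does not set these 10 apart.

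**Figure D4:**
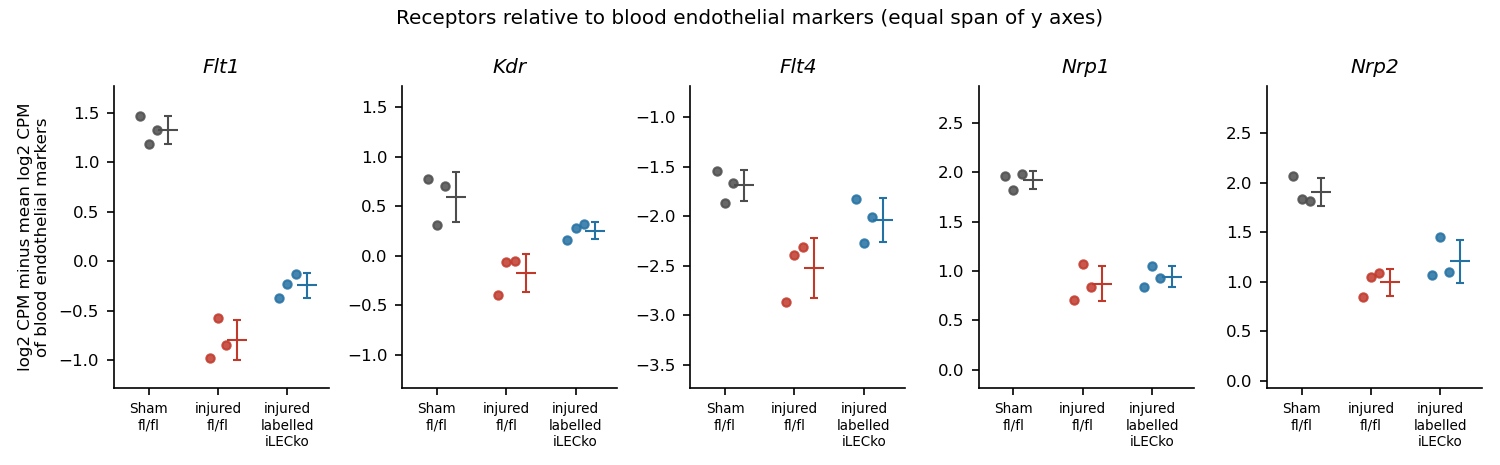
Log2 CPM of each receptor and neuropilin minus the mean log2 CPM of 18 blood endothelial markers in the same library (y axis, equal span in each panel), with 1 point per library and the mean and SD of each group. *Flt1* has a mean of 1.33 in Sham and -0.79 in injured VEGFR3fl/fl libraries, and *Kdr* 0.60 and -0.17.

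Other genes of the VEGF system were counted in 7 lists, to be read against the 22.1% of all genes that rose and the 17.5% that fell. Among genes that process VEGF-C and VEGF-D, 5 of 8 tested rose after injury and 0 fell, with a median log2 fold change of 1.01. *Adamts14*, a procollagen protease that can cut VEGF-C, was 0.691 ± 0.158 CPM in Sham and 5.58 ± 3.17 CPM after injury (log2 fold change 3.00, adjusted p = 0.000946 by edgeR). *Ctsd*, which encodes the lysosomal protease cathepsin D, was 1736 ± 141 and 10700 ± 666 CPM (log2 fold change 2.63, adjusted p = 3.72e-07 by edgeR). *Ctsd* is abundant in macrophages, whose summed markers were 425 to 432 CPM in Sham and 3470 to 3800 CPM after injury, and their part in the result was not tested. The proprotein convertases of this list, named here after their values were seen, differed from each other. *Furin* was a DEG that rose by 0.63 on the log2 scale (adjusted p = 0.00196 by edgeR). *Pcsk5* and *Pcsk7* were not DEGs, with log2 fold changes of -0.19 and -0.31 (adjusted p = 0.238 and 0.0238 by edgeR).

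Among extracellular inhibitors of vessel growth, 9 of 14 rose and 1 fell, with a median of 1.82. *Thbs1*, which encodes thrombospondin, rose from 67.5 ± 20.8 to 1441 ± 60.1 CPM (log2 fold change 4.42, adjusted p = 1.90e-06 by edgeR). *Cxcl10*, an interferon-induced chemokine, rose by 3.64 on the log2 scale (adjusted p = 0.00389), and *Col4a3*, whose collagen chain yields tumstatin, fell by 1.65 (adjusted p = 0.0116). The count of genes that fell was 2 without Sham replicate 2, injured replicate 1 or injured replicate 3. Several list members are matrix genes that fibroblasts make. The summed fibroblast markers were 1700 to 1940 CPM in Sham and 14500 to 20600 CPM after injury, and their part in the result was not tested.

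Among genes that VEGF is known to induce in endothelium, 12 of 16 rose and 0 fell, with a median of 1.73. *Aplnr*, the receptor of the peptide apelin, rose from 1.51 ± 0.224 to 106.0 ± 34.1 CPM (log2 fold change 6.12, adjusted p = 3.64e-07 by edgeR), and *Plaur*, the urokinase receptor, rose by 5.44 (adjusted p = 7.82e-08). These genes have other inducers and sources besides VEGF and endothelium. Blood endothelial and macrophage markers were higher in the same libraries, and their part in the result was not tested.

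Among co-receptors and genes of receptor trafficking, 6 of 16 rose and 2 fell, with a median of 0.17. *Itgb3*, an integrin subunit that can associate with VEGFR2, rose by 3.99 on the log2 scale (adjusted p = 4.09e-05 by edgeR), and *Hspg2*, the basement membrane proteoglycan perlecan, by 1.70 (adjusted p = 6.14e-07). *Itga9*, an integrin subunit of lymphatic endothelium and smooth muscle, fell by 1.27 (adjusted p = 0.000279), and *Myo6*, a motor protein of receptor uptake, by 1.02 (adjusted p = 2.98e-06). Among receptor signal transducers, 8 of 34 rose (23.5%) and 3 fell (8.82%), with a median of 0.13, so that the share that rose was near that of all genes. *Sh2d2a*, an adaptor that is also abundant in T cells, rose by 4.93 (adjusted p = 6.58e-05), from 0.0746 ± 0.0646 to 2.49 ± 0.345 CPM, and *Sphk1*, a sphingosine kinase, by 2.04 (adjusted p = 0.000481). The adaptors *Shb* and *Nck2* fell by 1.48 and 0.75 (adjusted p = 4.70e-05 and 0.000158 by edgeR). With libraries scaled by their totals alone, 5 transducers rose and 6 fell.

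Among semaphorins and plexins, which share the neuropilins with VEGF, 3 of 12 rose (25%) and 2 fell (16.7%), with a median of -0.073, and both shares were near those of all genes. *Plxnd1*, an endothelial semaphorin receptor, rose by 2.18 on the log2 scale (adjusted p = 1.23e-07 by edgeR), and *Sema3a*, a ligand of *Nrp1*, by 1.62 (adjusted p = 0.0186). *Sema3b* and *Sema3c* fell by 0.77 and 0.75 (adjusted p = 0.00341 and 0.00185 by edgeR), and without injured replicate 1 only 1 gene of this list fell. Among hypoxia regulators and targets, 3 of 16 rose (18.8%) and 2 fell (12.5%, or 4 genes with scaling by library totals alone), with a median of -0.25, and neither share was above that of all genes. The low-level genes *Car9*, a carbonic anhydrase, and *Ankrd37* rose by 1.07 and 1.03 (adjusted p = 0.0312 and 0.0155 by edgeR), with means of 2.98 and 2.02 CPM after injury. *Slc2a1*, the glucose transporter GLUT1, fell from 1772 ± 103 to 505 ± 77.7 CPM (log2 fold change -1.81, adjusted p = 1.22e-05 by edgeR), and *Pdk1*, a kinase that restrains pyruvate oxidation, by 1.42 (adjusted p = 1.62e-05). Summed markers of pigment cells and smooth muscle were lower in the same libraries as *Vegfa*, *Vegfb*, *Vegfd*, *Slc2a1* and *Pdk1*, and their part in these falls was not tested.

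**Figure D5:**
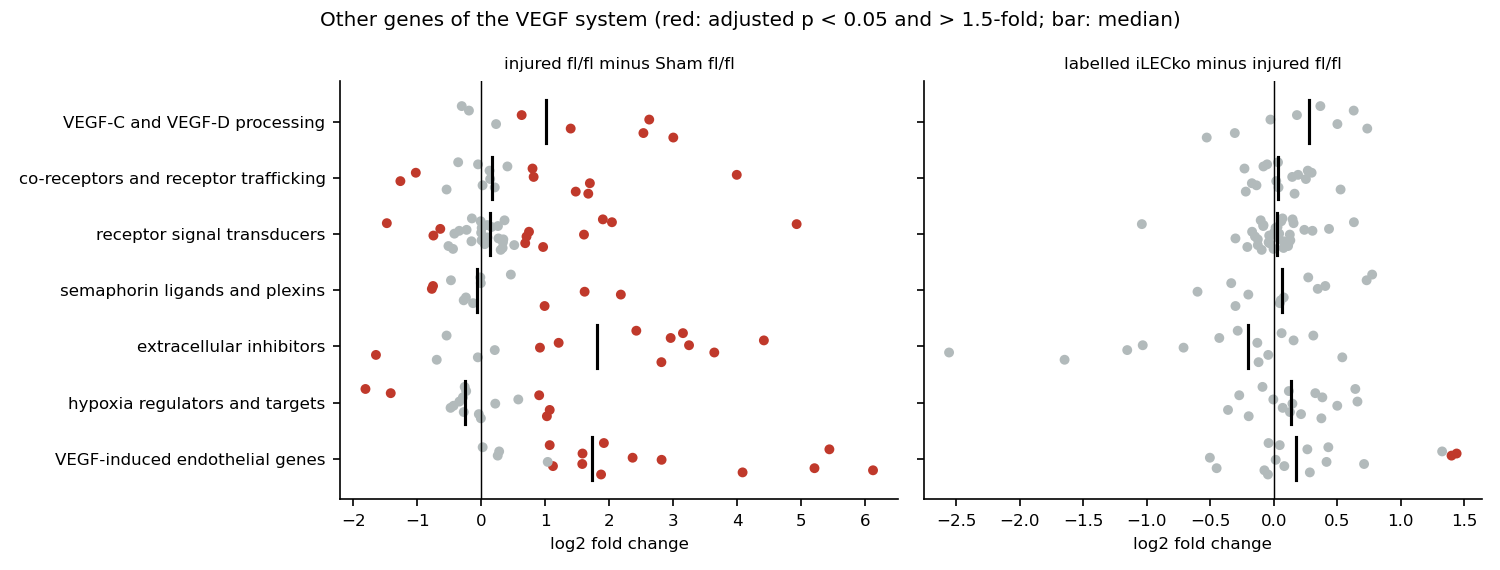
Log2 fold change (x axis) of each tested gene in the 7 lists (rows), after injury (left) and between the libraries labelled VEGFR3iLECko and injured VEGFR3fl/fl (right), with DEGs in red and the list median as a bar. After injury the medians lie between -0.25 and 1.82, and between the injured groups between -0.21 and 0.27.

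The second comparison asked how the libraries labelled VEGFR3iLECko differed from the injured VEGFR3fl/fl libraries, which also served in the first comparison. By edgeR, 0 of the 10 genes were DEGs, and 1.04% of all genes tested were. An unadjusted p under 0.05 was reached by 5 of the 10 genes (*Vegfa*, *Vegfd*, *Flt1*, *Kdr* and *Flt4*, all higher) and by 24.5% of all genes. DESeq2 called 2 of them, *Vegfa* and *Vegfd*, and 4.2% of all genes. The number of DEGs among all genes was 156 by edgeR, and it was unstable. It was 0 without replicate 2 labelled VEGFR3iLECko or with only the 6 libraries compared, 2 with the level of Y-linked RNA as a covariate, 9 and 63 without replicates 1 and 3 labelled VEGFR3iLECko, 26, 76 and 11 without Sham replicates 1 to 3, and 117, 251 and 281 without injured replicates 1 to 3. The groups did not overlap for 4 of the 10 genes, *Vegfa*, *Vegfd*, *Flt1* and *Kdr*, and for 26.7% of all genes. The median log2 fold change was 0.29 over the 10 genes and -0.0099 over all genes.

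*Vegfa* had 178, 141 and 147 CPM in the libraries labelled VEGFR3iLECko, against 67.1, 121 and 106 CPM in injured VEGFR3fl/fl libraries. All 3 labelled libraries were higher, and all 3 were below the Sham libraries, replicate 1 narrowly. The log2 fold change was 0.66 (SE 0.195, 95% CI 0.22 to 1.10, adjusted p = 0.0984 by edgeR), and DESeq2 gave 0.67 (adjusted p = 0.0169). With 1 library left out, the edgeR value ran from 0.46, which is below 1.5-fold, to 0.84 (adjusted p = 0.0617 to 0.206). *Vegfd* had 8.88, 11.8 and 12.1 CPM against 7.40, 6.85 and 7.52 CPM. Again no library overlapped, and the log2 fold change was 0.59 (SE 0.149, 95% CI 0.26 to 0.93, adjusted p = 0.0717 by edgeR), with 0.60 by DESeq2 (adjusted p = 0.0177). *Flt1* had 76.5, 86.5 and 102 CPM against 63.0, 73.4 and 63.8 CPM. The log2 fold change of this receptor was 0.40 (SE 0.112, 95% CI 0.15 to 0.66, adjusted p = 0.0857 by edgeR), below 1.5-fold by either tool. With the level of Y-linked RNA as a covariate, the log2 fold changes of *Vegfa*, *Vegfd* and *Flt1* were 0.55, 0.50 and 0.45, and the adjusted p of *Vegfa* was 0.621 by edgeR.

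*Kdr* had 111, 123 and 138 CPM in the libraries labelled VEGFR3iLECko, all above the injured VEGFR3fl/fl libraries at 94.2, 104 and 110.2 CPM. The gap was narrow, with a log2 fold change of 0.27 (95% CI 0.0011 to 0.54, adjusted p = 0.203 by edgeR). *Flt4* had 27.9, 21.0 and 27.4 CPM, and replicate 2 overlapped the injured VEGFR3fl/fl libraries at 16.8, 20.7 and 23.0 CPM. Its log2 fold change was 0.33 (SE 0.146, 95% CI 0.0045 to 0.67, adjusted p = 0.20 by edgeR), so that the interval lay above 0. *Vegfb* (103, 84.9 and 68.0 CPM), *Vegfc* (11.7, 11.2 and 12.2 CPM), *Pgf* (25.4, 28.9 and 32.4 CPM), *Nrp1* (178, 210.0 and 212 CPM) and *Nrp2* (208, 278 and 238 CPM) overlapped the injured VEGFR3fl/fl libraries. Their 95% CIs included 0, from -0.32 to 0.30 for *Vegfb*, -0.66 to 0.056 for *Vegfc*, -0.12 to 0.73 for *Pgf*, -0.29 to 0.12 for *Nrp1* and -0.18 to 0.31 for *Nrp2*, on the log2 scale.

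The summed ligand level was 136 ± 16.2 CPM per kb in the libraries labelled VEGFR3iLECko (SD, n = 3). *Vegfa* made up 33.6%, 31.1% and 34.8% of it, against 18.8%, 27.5% and 26.0% in injured VEGFR3fl/fl libraries, and *Vegfb* made up 52.5%, 50.5% and 43.5%, against 62.5%, 53.6% and 58.3%. Neither share overlapped between the groups (exact permutation test, p = 0.1, adjusted p = 0.2). The log2 ratio of *Kdr* over *Flt1* was 0.72 ± 0.048 (exact permutation test against injured VEGFR3fl/fl, p = 0.3), that of *Vegfa* over *Flt1* and *Kdr* 0.41 ± 0.33 (p = 0.4 by the same exact test) and that of *Vegfc* and *Vegfd* over *Flt4* 1.33 ± 0.30 (exact test, p = 0.6). *Flt4* over *Kdr* was -2.37 ± 0.29 (exact test, p = 0.9), so that the ratio of the receptor targeted for deletion to *Kdr* differed by less than the spread between libraries.

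The 18 blood endothelial markers had a median log2 fold change of -0.18 in this comparison and a summed level of 2340 to 2600 CPM in the libraries labelled VEGFR3iLECko. *Pecam1* and *Cdh5* differed by -0.0081 and 0.070 on the log2 scale (adjusted p = 0.973 and 0.81 by edgeR). Relative to the mean of the 18 markers, *Vegfd* was higher by 0.73 (adjusted p = 0.0464 by limma), the only 1 of the 10 genes to pass, and 1.91% of all genes were higher on this scale. This call was lost when *Pecam1* or *Cdh5* alone was the reference (adjusted p = 0.167 and 0.599) and without injured replicate 1, any Sham replicate or any replicate labelled VEGFR3iLECko. The differences of *Flt1* (0.55, adjusted p = 0.0502 by limma), *Vegfa* (0.85, adjusted p = 0.0707), *Kdr* (0.42, adjusted p = 0.093) and *Flt4* (0.49, adjusted p = 0.111) did not pass.

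Of the 7 lists, 6 had 0 DEGs between the injured groups by edgeR, with medians from -0.21 for extracellular inhibitors to 0.27 for processing of VEGF-C and VEGF-D. In each of these 6 lists, 4 to 6 genes had an unadjusted p under 0.05, which was between 14.7% of the transducers and 50% of the processing genes and of the semaphorins and plexins, as against 24.5% of all genes. DESeq2 called 1 processing gene and 2 hypoxia genes higher and 2 inhibitors lower. Without injured replicate 2 or 3, edgeR called 1 to 2 genes in 3 of these lists (processing, inhibitors and hypoxia). Among genes that VEGF induces in endothelium, 2 of 16 rose, with a median of 0.17. Both encode nuclear receptors of the immediate early response. *Nr4a1* was 84.0 ± 21.8 CPM in injured VEGFR3fl/fl and 222 ± 72.4 CPM in the libraries labelled VEGFR3iLECko (log2 fold change 1.40, adjusted p = 0.0481 by edgeR), and *Nr4a2* was 17.4 ± 1.04 and 47.2 ± 16.1 CPM (1.44, adjusted p = 0.0278 by edgeR). Both calls were lost without Sham replicate 1 or 3 or without replicate 1 or 2 labelled VEGFR3iLECko, and 1 gene of the list was called without Sham replicate 2, replicate 3 labelled VEGFR3iLECko, or injured replicate 1 or 2. No gene of the list was called with only the 6 libraries compared or with the Y-linked covariate, and 1 was with the replicate block or with scaling by library totals alone. *Nr4a1* and *Nr4a2* respond to many stimuli besides VEGF. Macrophage markers were lower in the same libraries, with 7 of 13 genes lower, 0 higher and a summed level of 2210 to 2470 CPM, as against 3470 to 3800 CPM, and their part in these results was not tested. These 7 calls, like all calls between the injured groups, were lost with only the 6 libraries compared or without replicate 2 labelled VEGFR3iLECko. Pigment cell markers were above 0 in log2 fold change for 8 of 8 genes (median 0.32, 3 with an unadjusted p under 0.05), with a summed level of 5120 to 7170 CPM against 3410 to 5860 CPM, and neutrophil markers for 3 of 3 tested genes (median 1.55, 2 with an unadjusted p under 0.05), at 150 to 833 CPM against 80.8 to 177 CPM. None of these was a DEG by edgeR, and their part in the values of *Vegfa*, *Vegfd* and *Flt1* was not tested. Of the lymphatic endothelial markers, 1 of 9 was higher and 0 were lower. In log2 fold change, 4 were above 0 and 5 below (median -0.15, 2 with an unadjusted p under 0.05 by edgeR). These genes, *Reln* and *Ccl21a*, are named here after their values were seen, and they went in opposite directions. *Reln*, the higher gene, was 126 ± 2.55 CPM in injured VEGFR3fl/fl libraries and 212 ± 29.9 CPM in those labelled VEGFR3iLECko. In Sham irises it was at 505 ± 66.6 CPM. *Ccl21a* was 32.3 ± 52.0 CPM in injured VEGFR3fl/fl libraries and 0.211 ± 0.120 CPM in those labelled VEGFR3iLECko. It was not a DEG (log2 fold change -7.21, adjusted p = 0.0877 by edgeR). *Prox1* was 2.68 ± 1.98 CPM in injured VEGFR3fl/fl libraries and 1.09 ± 0.14 CPM in those labelled VEGFR3iLECko (log2 fold change -1.29, adjusted p = 0.256 by edgeR).

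The libraries labelled VEGFR3iLECko were also compared with the Sham libraries, which the first comparison used too. These groups did not overlap in summed Y-linked RNA, at 0.736 to 1.11 CPM against 51.1 to 167 CPM in Sham. All 4 Y-linked genes were DEGs that were lower. From these groups alone, a difference of label and a difference in Y-linked RNA cannot be told apart. Of the 10 genes, 3 rose (*Pgf*, *Kdr* and *Flt4*) and 2 fell (*Vegfb* and *Vegfd*), and among all genes tested 19.7% rose and 15% fell. The groups did not overlap for 9 of the 10 genes and for 66.5% of all genes. *Pgf*, at 25.4 to 32.4 CPM against 16.7 to 18.1 CPM, rose by 0.74 on the log2 scale (SE 0.189, adjusted p = 0.00868 by edgeR). *Kdr*, at 111 to 138 CPM against 60.6 to 78.5 CPM, rose by 0.79 (SE 0.121, adjusted p = 0.000542 by edgeR). *Flt4* was 1.74-fold higher than in Sham, with a log2 fold change of 0.80 (SE 0.148, adjusted p = 0.00161 by edgeR). *Flt4* was thus a DEG that rose in libraries labelled for its deletion in lymphatic endothelium. Of the 18 blood endothelial markers, 15 were higher and 1 lower in this comparison, with a median log2 fold change of 1.20. Relative to their mean, *Flt4* was -1.69 ± 0.16 in Sham and -2.03 ± 0.22 in the libraries labelled VEGFR3iLECko (log2, SD, n = 3). The part of blood endothelium in the rises of *Kdr* and *Flt4* was not tested.

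*Vegfb* fell by 1.55 on the log2 scale against Sham (adjusted p = 2.20e-05 by edgeR) and *Vegfd* by 0.84 (adjusted p = 0.00110). *Vegfa* was the ligand that fell in injured VEGFR3fl/fl libraries but was not a DEG here, with a log2 fold change of -0.35 (95% CI -0.79 to 0.088, adjusted p = 0.157 by edgeR), although all 3 libraries labelled VEGFR3iLECko were below the lowest Sham library, replicate 1 narrowly. The difference between the injured groups is the test given above, which *Vegfa* did not pass by edgeR. *Flt1* differed by -0.43 (adjusted p = 0.00894), *Vegfc* by -0.45 (adjusted p = 0.0352) and *Nrp2* by 0.44 (adjusted p = 0.00791), all below 1.5-fold, and *Nrp1* by 0.16 (adjusted p = 0.165 by edgeR). With Y-linked RNA as a covariate the log2 fold changes of *Pgf* and *Flt4* were 0.88 (SE 0.327, adjusted p = 0.0737 by edgeR) and 0.55 (SE 0.232, adjusted p = 0.107 by edgeR), and neither was called.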

How the data were processed

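Iris RNA was sequenced in 9 libraries of 3 pooled irises each. The authors deposited estimated counts of genes, without normalization, under symbols and NCBI Gene IDs. The submitters' processing notes name HISAT2 2.0.4, Bowtie2 2.2.5, DESeq2 1.4.5 and mm10, and the counting program and annotation are not given in the sources used here. A combined table held the same values with group averages and was not used. Genotype tags of 2 libraries labelled VEGFR3iLECko named another VEGFR number, and their titles were followed.

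The estimated counts were rounded and, in R 4.3.3, filtered by filterByExpr and normalized by TMM (factors 0.90 to 1.09) with edgeR 4.0.16, which kept 15010 of 18349 genes. The quasi-likelihood test of edgeR was run on 1 fit of all 9 libraries with group as the only term and Benjamini-Hochberg adjustment over all genes. DEGs changed over 1.5-fold at an adjusted p under 0.05. Levels relative to endothelial markers were tested with limma 3.58.1 on log2 CPM with a prior count of 2. Permutation tests were exact and two-sided. Transcript lengths came from GENCODE M21, and coordinates and promoters from RefSeq GRCm38.p6. Replicates differed by more than counting noise (chi-square over its degrees of freedom, 5.13 to 76.2). The values were 5.13 to 11.2 in Sham, 17.4 to 27.9 in libraries labelled VEGFR3iLECko and 26.7 to 76.2 in injured VEGFR3fl/fl libraries. Pairs with injured replicate 1 gave 67.4 and 76.2. The spread was thus unequal between groups, whereas the fit shared its estimate over all groups.

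Alternatives were RLE, upper-quartile and library-size scaling, no count filter, a TPM filter, DESeq2 1.42.0, the compared libraries alone, a replicate block, a Y-linked covariate, no fold threshold, other references and lengths, and each library left out in turn. The procedure was tested on simulated data. Named genes were the 10 family members, *Prox1*, *Cdh5* and *Pecam1*, in each list and comparison the 2 DEGs with the largest rise and the 2 with the largest fall at a mean of at least 1 CPM, and the 3 genes whose pattern was most like that of each member. A result that this rule covers is not reported here. The members, the 7 lists of related genes and the 14 lists of cell type and Y-linked markers were chosen with earlier results of these data known.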

Additional observations from a re-analysis of the deposited data

How the results depend on the processing

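The falls of *Vegfa*, *Vegfb*, *Vegfd* and *Flt1* after injury kept their direction and call in 19 of 19 alternatives. Without a fold threshold, 4 genes were higher after injury instead of 0, and 4 instead of 2 were lower in the libraries labelled VEGFR3iLECko than in Sham. With 1 library left out, 0 to 1 gene was a DEG that rose after injury, namely *Pgf* without injured replicate 1. DESeq2 called 2 genes higher between the injured groups, where edgeR called 0, and 630 against 156 among all genes, and with a Y-linked covariate 1 gene instead of 3 was called higher in the libraries labelled VEGFR3iLECko than in Sham. Relative to endothelial markers, 0 genes instead of 1 were higher between the injured groups with *Cdh5* or *Pecam1* alone or with the replicate block, and 0 to 4 with 1 library left out, with 4 without injured replicate 2. Replicate numbers did not pair the libraries, since correlations of same-numbered libraries ran from -0.387 to 0.131 and 6 of 18 correlated best with their own number. The replicate block changed no call of the 10 genes by edgeR, and the DEGs among all genes between the injured groups went from 86 higher and 70 lower to 11 and 13. With the median transcript length the *Vegfa* share was 45.5% in Sham, 47.2% in injured VEGFR3fl/fl and 59.0% in the libraries labelled VEGFR3iLECko.

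Changes of sign were limited to differences that did not pass the main tests. Between the injured groups, *Vegfb* was 0.046 with library-size scaling and -0.17 to 0.13 with 1 library left out, *Vegfc* was 0.049 and *Nrp2* -0.039 with the Y-linked covariate, and *Nrp2* was -0.048 to 0.16 with 1 library left out. After injury, *Vegfc* was -0.35 to 0.0033 with 1 library left out, with an adjusted p of 0.0358 to 0.986 by edgeR. Relative to endothelium between the injured groups, *Vegfb* was -0.13 with *Cdh5* alone and -0.019 with *Pecam1* alone, *Nrp1* was -0.18 and -0.073, and *Nrp2* was -0.036 with *Cdh5* alone. On that scale, with 1 library left out, *Vegfb* was -0.057 to 0.32, *Nrp1* -0.013 to 0.17 and *Vegfc* -0.28 to 0.0087. Scaling by library size alone moved the median change over all genes after injury to -0.16 (log2), with 2783 genes higher and 3523 lower against 3323 and 2630. The cause of these differences was not tested. With 3 libraries per group no exact test can give a p below 0.1, and RNA of whole irises does not show which cells made it.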

Other observations

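The genes whose log2 CPM followed each of the 10 genes most closely over the 9 libraries were found among 14221 genes by Pearson's r, as a description that rests on the 3 groups and on shared libraries. They were *Zic2* (0.986), *Rrn3* (0.979) and *Chmp4c* (0.975) for *Vegfa*, *Ankrd40* (0.998), *Mgll* (0.997) and *Aldh7a1* (0.996) for *Vegfb*, *Ndufb11* (0.971), *Sec61a2* (0.964) and *Men1* (0.962) for *Vegfc*, *Tmem117* (0.994), *Wls* (0.984) and *Flrt3* (0.977) for *Vegfd*, and *Unc93a* (0.993), *Eml1* (0.982) and *Twf1* (0.978) for *Pgf*. For the receptors they were *Gm47547* (0.984), *Kalrn* (0.979) and *Rsrc1* (0.979) for *Flt1*, *Stil* (0.987), *Uhrf1bp1l* (0.986) and *Spire1* (0.985) for *Kdr*, and *Ubxn4* (0.972), *Cast* (0.970) and *D430019H16Rik* (0.965) for *Flt4*. For the neuropilins they were *Bend4* (0.949), *Supt16* (0.948) and *Top3a* (0.942) for *Nrp1*, and *Sel1l* (0.977) and *Lin9* (0.969) for *Nrp2*.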
